A study of Homo sapiens with 6 samples.

Results

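The 54 genes described here encode the proteins that duplicate the centriole, form its wall and cap, carry its appendages, build the pericentriolar matrix, link the 2 centrosomes, or make up the augmin complex. They were chosen by name from this role, with earlier results of these data known. All 54 symbols were found among the 60624 genes of the table. Their RNA was measured by RNA-seq in 6 libraries of A549, a human lung adenocarcinoma cell line. Of these, 3 libraries (siCTR, n = 3) came from cells transfected with a control siRNA. The other 3 (siCEP20, n = 3) came from cells transfected with an siRNA against CEP20, a centrosomal and microtubule-binding protein. The labels give 3 days of transfection for all 6 libraries. Apart from the siRNA, both groups are the same unedited line. The sample labels call the treatment a plasmid transfection and name another growth medium than the study's methods, and which of the siRNAs was used is not given in the sources used here. The study's methods give 3 independent experiments for its results in general but do not describe the RNA-seq replicates as separate cultures. The p-values therefore measure only the spread between these libraries.

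A centriole duplicates once per cell cycle. The kinase PLK4 is recruited to the mother centriole by CEP152 and CEP192, binds STIL, and brings in SASS6, which forms the cartwheel that gives the new centriole its symmetry. CENPJ, CEP120 and SPICE1 then lengthen its microtubule wall. An older centriole carries distal appendages, which dock it to membrane when it becomes the base of a cilium, and subdistal appendages, which anchor microtubules. The pericentriolar matrix around it holds the gamma-tubulin complexes that start microtubules, a fibrous linker holds both centrosomes together until mitosis, and augmin starts new microtubules from the side of existing ones within the spindle.

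CEP20 itself (chr16:15865719-15888625, minus strand, GRCh38) was at 29.2, 30.5 and 35.1 TPM (transcripts, scaled by gene length and to the library total) in siCTR and at 16.2, 15.3 and 17.3 in siCEP20. The groups did not overlap, and CEP20 fell (log2 fold change of TPM + 1 of -0.92 ± 0.091 SE, adjusted p = 0.000205). Because TPM sums to the same total in every library it keeps no sequencing depth, and the depth behind each value is unknown. Between 14429 and 14600 genes reached 1 TPM in the siCTR libraries and between 14851 and 14987 in the siCEP20 libraries. All 5 epithelial markers examined were detected and were higher in siCEP20, with summed levels of 3230 to 3299 TPM in siCTR and 4187 to 4367 TPM in siCEP20, although EPCAM was only at 0.834 to 1.24 TPM in siCTR and 3.01 to 3.85 TPM in siCEP20. The leukocyte markers reported here summed to 15.6 to 23.7 TPM in siCTR and 27.6 to 46.3 TPM in siCEP20, nearly all of it CD68, with CD3E at 0 in every library. The 5 fibroblast markers summed to 5.39 to 6.15 and 17.7 to 19.95 TPM, nearly all COL1A1, with COL1A2 and DCN at 0, and the 5 endothelial markers summed to at most 0.16 TPM in any library. The part of these markers in the results below was not tested.

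On unscaled TPM, most of the centriole and centrosome genes were higher after CEP20 knockdown and none was lower at an adjusted p under 0.05. Under each of the other scalings described below, most of these genes did not pass as higher, and HAUS1 was lower. Of the 54 members, 53 passed the expression filter, a mean of at least 1 TPM over the 6 libraries. Of these, 31 rose (58.5%), 0 fell and 22 did not pass, where passing means an adjusted p under 0.05 by limma over all 14778 tested genes. Across all tested genes, 30.2% rose and 13.2% fell, so the count of higher members was above its background and the count of lower members below it. With an unadjusted p under 0.05, 32 members were higher and 1, HAUS1, was lower. The study's further requirement was a fold change over 1.5, which it applied in a count test (DESeq2). Put here on unscaled TPM + 1, that requirement called 12 members (22.6%) higher, beside 11.2% of all tested genes. None was called lower under a fold change of 0.67, beside 4.61% of all tested genes. With median-of-ratios scaling, described below, 0 members were called in either direction. Every siCEP20 value lay above every siCTR value for 31 members (background 38.4%) and below for HAUS1 alone (background 17.0%), and 21 members overlapped. The counts changed when single libraries were left out. Without siCEP20 replicate 2, 20 members were higher and 7 were called, and without siCTR replicate 1, 24 were higher, 6 were called and HAUS1 was lower.

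The 53 members had a median log2 fold change of 0.37 and ran from -0.28 (CETN3) to 0.73 (CEP89). The median over all tested genes was 0.13, so the members' median stood 0.24 above it. Of the 53, 44 had a positive fold change and 40 lay above the all-gene median. Together the members took 731.8, 747.5 and 792.6 TPM of the siCTR libraries and 945.0, 1014 and 953.1 TPM of the siCEP20 libraries, with no overlap between the groups. In bulk RNA, more cells of a type, or of a cell cycle phase, and more RNA per cell cannot be told apart.

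**Figure D1:**
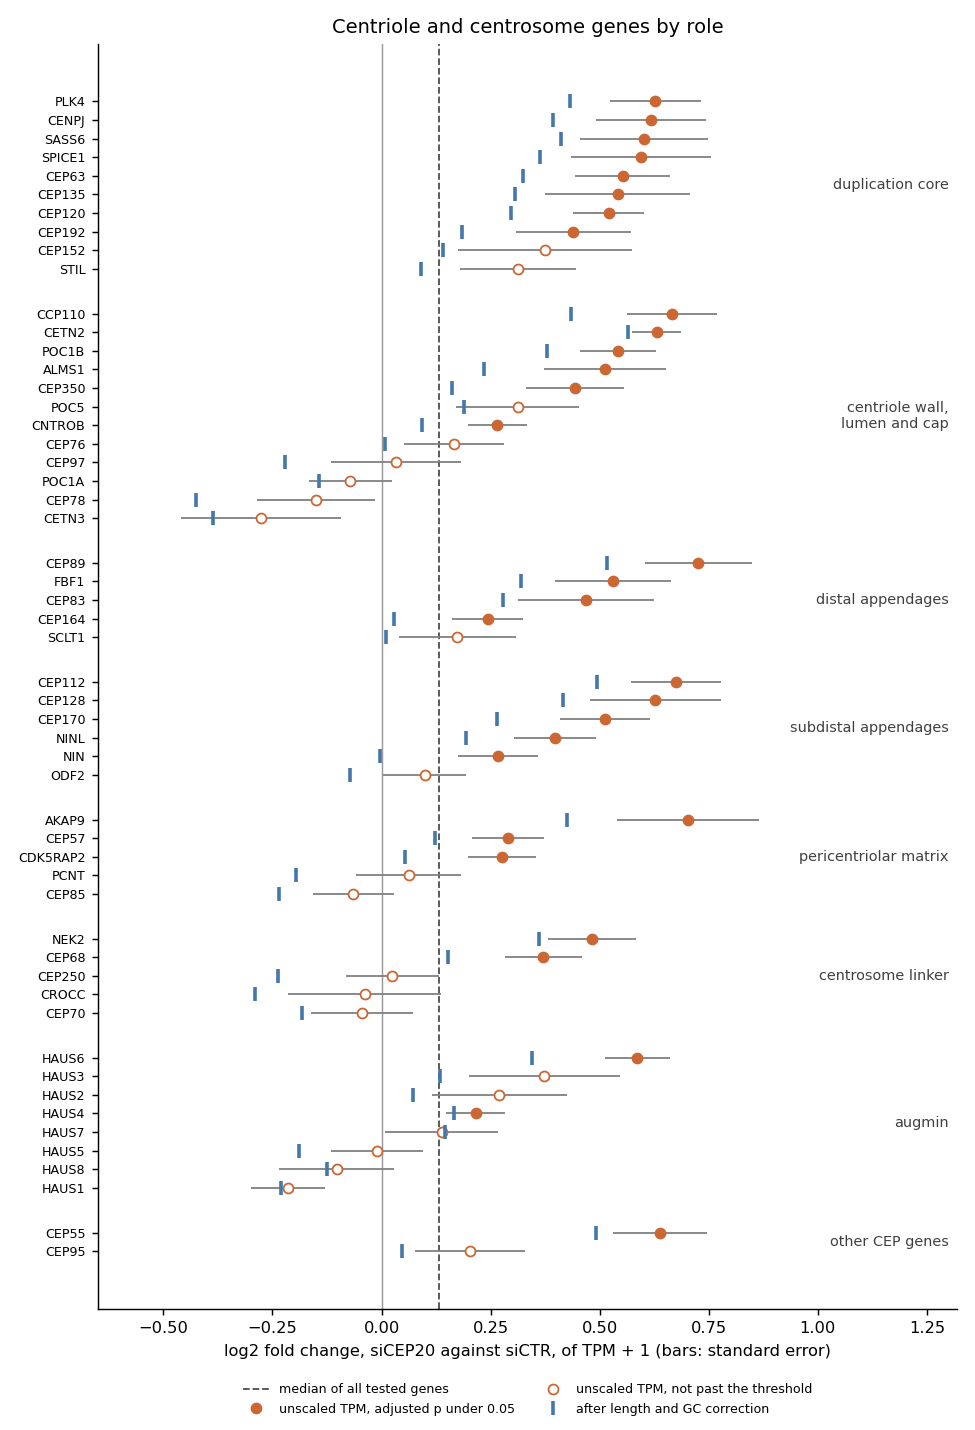
Log2 fold change of TPM + 1, siCEP20 against siCTR, for the 53 tested members by role, with 3 libraries a group. Circles are unscaled TPM (filled where the adjusted p was under 0.05; bars, standard error), blue ticks the same genes after correction for transcript length and GC content, and the dashed line the median of all tested genes, 0.13. All 10 genes of the duplication core lie to the right of the dashed line, whereas the linker and augmin genes lie on both sides of it.

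Because so many genes rose in these TPM values, the counts were repeated on 3 other scalings, each of which brought the all-gene median to within 0.01 of 0. With median-of-ratios scaling, which equalizes the typical gene between libraries, 21 members (39.6%) were higher and 1 was lower, beside 19.7% and 21.8% of all tested genes. After quantile normalization, which gives every library the same distribution of values, 19 (35.8%) were higher and 1 was lower, beside 21.4% and 19.9%. In the third, the trend of the fold changes with transcript length and GC content was removed, which left 14 members (26.4%) higher and 2 lower, beside 20.0% and 21.2% of all tested genes. HAUS1 was the gene that fell in each of these, joined by CEP78 in the last. The share of members that rose was above the share of all genes that rose on unscaled TPM, with median-of-ratios scaling and after quantile normalization. After the length and GC correction both shares lay close together, 26.4% beside 20.0%. The share that fell stayed below that of all genes under each scaling. A group of 13 members was higher on unscaled TPM and in all 16 alternative analyses run: PLK4, CENPJ, CEP63, CEP120, CCP110, POC1B, CETN2, CEP89, CEP170, CEP112, NEK2, HAUS6 and CEP55.

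**Figure D2:**
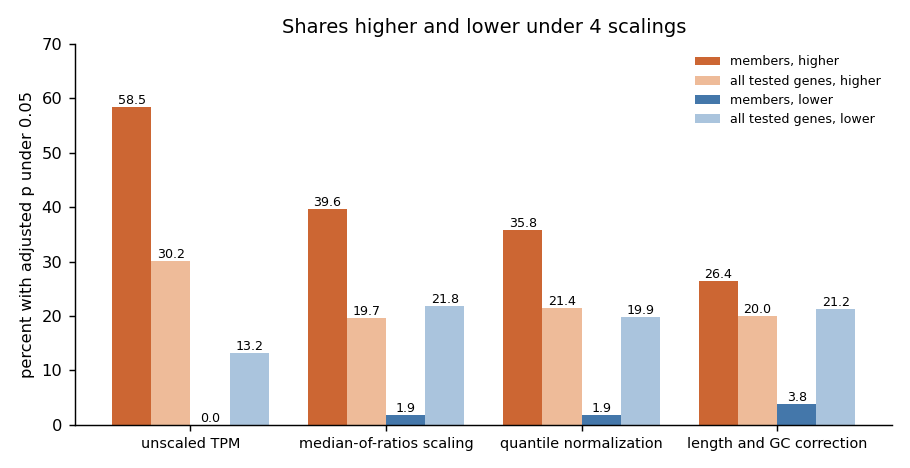
Percent of the 53 tested members and of all tested genes that were higher or lower in siCEP20 (adjusted p under 0.05) under 4 scalings of the same TPM values. The members' share of higher genes drops from 58.5% on unscaled TPM to 26.4% after the length and GC correction, where it stands beside 20.0% of all genes, while the members' share of lower genes is at most 3.77%.

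Centriole and centrosome genes are long. The members' canonical transcripts had a median length of 4874 bases and a median GC content of 41.5%, against 2818 bases and 49.19% over the tested genes with a length. When all tested genes were put into 5 classes of about equal size by transcript length, their median log2 fold change went from -0.05 in the shortest class (up to 1301 bases) through 0.07, 0.14 and 0.19 to 0.26 in the longest (from 5282 bases). These classes held 1, 7, 9, 15 and 21 members. Within the 2 longest classes, 10 of 15 and 14 of 21 members were higher, beside 36.74% and 41.72% of all genes there, and the members' median log2 fold changes were 0.47 and 0.38. In the next class down, 4 of 9 members were higher beside 32.5% of all genes. Among the members themselves the log2 fold change had a Pearson correlation of 0.216 with log length and of -0.309 with GC content (n = 53 genes of the same libraries, given as a description). CETN2, with a transcript of 1413 bases, and NEK2, with one of 2134 bases, were among the members with a transcript shorter than that median that rose.

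**Figure D3:**
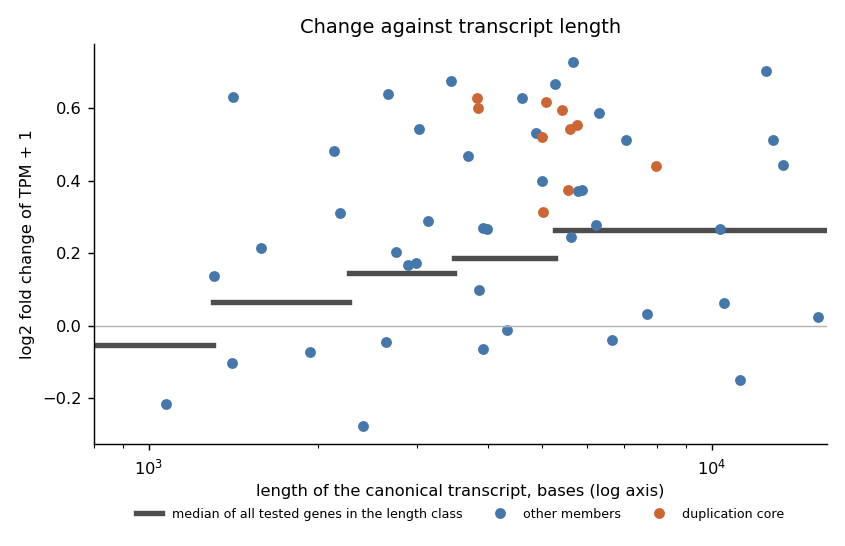
Log2 fold change of TPM + 1 of the 53 tested members against the length of their canonical transcript (log axis), with the duplication core in orange. Grey bars give the median over all tested genes in each of 5 length classes, from -0.05 to 0.26, the longest class running past the axis, and all 10 duplication genes lie above the bar of their length.

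Of the 10 genes of the duplication core, 8 rose (80.0%), 0 fell and 4 were called (40.0%). Among all tested genes, 30.2% rose, 13.2% fell and 11.2% were called higher. The core had a median log2 fold change of 0.55. Its summed levels were 52.7, 59.4 and 63.0 TPM in siCTR against 84.9, 93.5 and 84.8 TPM in siCEP20. All 10 fold changes were positive. Under median-of-ratios scaling and quantile normalization 6 of the 10 were higher, beside 19.7% and 21.4% of all tested genes. After the length and GC correction 5 of the 10 were (PLK4, SASS6, CENPJ, CEP63 and CEP120), beside 20.0%. The median log2 fold change of the core was then 0.31.

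PLK4 (chr4:127880893-127899224), the kinase that starts duplication, was at 4.30, 4.59 and 5.14 TPM in siCTR and at 7.80, 7.47 and 7.99 TPM in siCEP20. The 3 knockdown libraries were close together and well above the controls, so PLK4 rose 1.66-fold in mean TPM (log2 fold change 0.63 ± 0.105 SE, adjusted p = 0.00208). SASS6 (chr1:100083563-100132955), the cartwheel protein, was among the least abundant members, at 1.69, 2.31 and 1.81 TPM in siCTR and 3.45, 3.78 and 3.10 TPM in siCEP20. Its groups did not overlap and it rose (0.60 ± 0.147 SE, adjusted p = 0.0119). STIL (chr1:47250139-47314892), the partner of both, was at 5.87, 6.76 and 8.28 TPM in siCTR and 8.02, 9.74 and 8.78 TPM in siCEP20. The highest control of STIL exceeded the lowest knockdown library, and it did not pass (0.31 ± 0.133 SE, adjusted p = 0.0911), although without siCTR replicate 3 the adjusted p was 0.0318.

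CENPJ (chr13:24882279-24922889), which adds tubulin to the growing centriole wall, was at 3.41, 4.25 and 3.98 TPM in siCTR and 6.92, 6.91 and 5.65 TPM in siCEP20. Its groups were separate and it rose (0.62 ± 0.126 SE, adjusted p = 0.00545). SPICE1 (chr3:113442718-113515187), needed with CENPJ for elongation, was at 3.69, 4.45 and 6.01 TPM in siCTR and 7.45, 8.31 and 6.83 TPM in siCEP20. It also rose (0.59 ± 0.159 SE, adjusted p = 0.0175), though with a wider control spread than CENPJ or CEP120, and it did not pass without siCEP20 replicate 2 (adjusted p = 0.0628) or after the length and GC correction (adjusted p = 0.055). CEP120 (chr5:123344890-123423592), which acts with both, was more abundant, at 12.3, 12.1 and 13.2 TPM in siCTR and 18.1, 19.4 and 17.7 TPM in siCEP20. Its libraries were tight within each group (0.52 ± 0.0804 SE, adjusted p = 0.00146), and its fold change lay just under the 1.5 threshold.

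CEP192 (chr18:12991362-13125052), which recruits PLK4 and also organizes the matrix, was at 3.89, 5.57 and 4.61 TPM in siCTR and 6.83, 6.30 and 6.87 TPM in siCEP20. It rose on unscaled TPM (0.44 ± 0.131 SE, adjusted p = 0.0268), but not under any of the 3 other scalings, nor when any one library other than siCTR replicate 2 was left out (adjusted p from 0.0516 to 0.0772). CEP63, the partner of CEP152 at the mother centriole, rose (0.55 ± 0.109 SE, adjusted p = 0.00452), as did CEP135, which ties the cartwheel to the wall (0.54 ± 0.166 SE, adjusted p = 0.0299), although CEP135 did not pass under any of the 3 other scalings (adjusted p from 0.0776 to 0.169) and passed only with siCTR replicates 1 and 2 and siCEP20 replicates 1 and 2 all in the fit (adjusted p from 0.0518 to 0.10 without one of them). CEP152 itself did not pass (0.38 ± 0.20 SE, adjusted p = 0.163; 0.0423 without siCTR replicate 3). CEP152 overlapped between the groups, with 1.65 to 3.37 TPM in siCTR and 2.87 to 3.72 TPM in siCEP20.

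**Figure D4:**
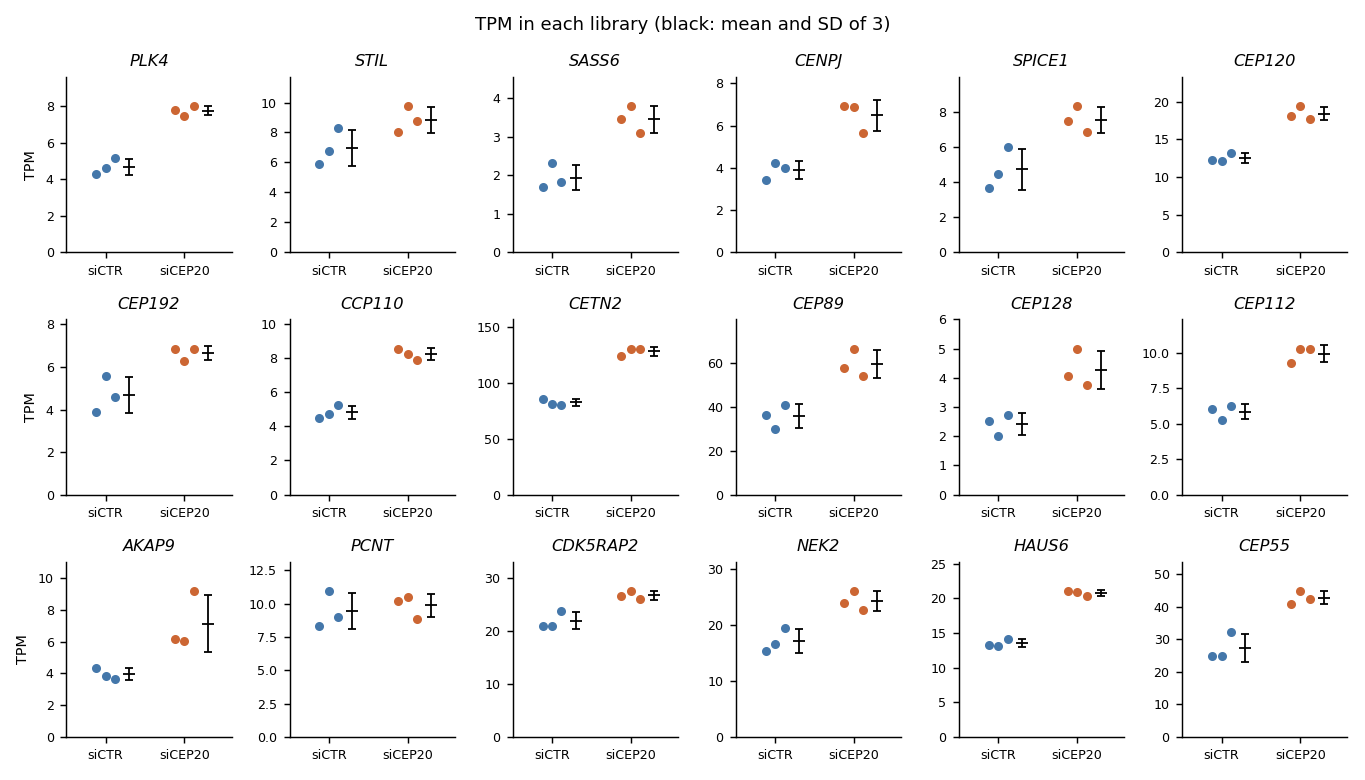
TPM of 18 members in each of the 3 siCTR (blue) and 3 siCEP20 (orange) libraries, every axis starting at 0; black marks give the mean and SD of 3. In 16 of the 18 the groups are separate, and in STIL and PCNT they overlap.

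The genes of the centriole wall, lumen and cap divided. Of 12 tested, 6 rose (CCP110, CETN2, POC1B, ALMS1, CEP350 and CNTROB), 0 fell and 6 did not pass, with a median log2 fold change of 0.29. Among all tested genes, 30.2% rose and 13.2% fell. Under median-of-ratios scaling, quantile normalization and the length and GC correction, 5, 3 and 3 of these 12 were higher. The shares of all tested genes were 19.7%, 21.4% and 20.0%. The counts of lower genes were 0, 0 and 1 (CEP78), beside 21.8%, 19.9% and 21.2% of all tested genes. ALMS1 did not pass without siCTR replicate 1 or siCEP20 replicate 2 (adjusted p = 0.0526 and 0.0697), nor CEP350 without siCEP20 replicate 1 or 2 (0.0549 and 0.0502), whereas POC5 passed without siCEP20 replicate 1 (0.0462). CEP162, which promotes assembly of the ciliary base, was the member below the expression filter. It was at 0.467, 0.752 and 0.495 TPM in siCTR and 1.38, 0.958 and 1.73 TPM in siCEP20, and it was not tested.

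CETN2 (chrX:152826994-152830757), a small calcium-binding centrin of the centriole lumen, was the most abundant member. CETN2 was at 85.8, 81.2 and 80.3 TPM in siCTR and 123.6, 130.6 and 130.3 TPM in siCEP20, with the smallest adjusted p of all members (0.63 ± 0.0567 SE, adjusted p = 0.000132). CCP110 (chr16:19523811-19553408), the cap protein that limits centriole length and holds back cilium formation, was at 4.49, 4.73 and 5.24 TPM in siCTR and 8.57, 8.24 and 7.87 TPM in siCEP20. It rose (0.67 ± 0.102 SE, adjusted p = 0.00141), and the controls lay far below the knockdown libraries. POC1B, a wall protein, rose as well (0.54 ± 0.0865 SE, adjusted p = 0.00169).

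The balance between paralogs or partners was taken for 4 pairs as a ratio within each library. A ratio of TPM needs no scaling between libraries. The log2 ratios and their tests below are of TPM + 1, which can depend on scaling for low genes. These ratios restate the fold changes of the same genes and are no separate evidence. The TPM of POC1B was 0.885, 1.10 and 0.975 times that of its paralog POC1A in siCTR and 1.41, 1.66 and 1.54 times in siCEP20. On the log2 scale the ratio was -0.02 ± 0.149 (SD, n = 3) in siCTR and 0.59 ± 0.111 in siCEP20, a difference of 0.61 (two-sided exact permutation p = 0.1, adjusted over 4 ratios 0.133). CETN3, the rarer of both centrins, was at 0.143, 0.235 and 0.144 times CETN2 in siCTR and at 0.0778, 0.0935 and 0.0956 times in siCEP20. That ratio was lower by 0.91 on the log2 scale, with no overlap (exact permutation p = 0.1, adjusted 0.133). CEP97, which binds CCP110 in the cap, stood at 0.632, 0.725 and 0.519 times CCP110 in siCTR and at 0.312, 0.448 and 0.373 times in siCEP20. This difference was -0.63 on the log2 scale, again with no overlap (exact permutation p = 0.1, adjusted 0.133). The ninein pair of the subdistal appendages differed less. NIN was at 0.729, 0.794 and 0.6998 times NINL in siCTR and 0.684, 0.632 and 0.713 times in siCEP20, with overlapping groups (difference -0.13, exact permutation p = 0.2). With 3 libraries against 3, 0.1 is the smallest p that this test can give, so no ratio could pass 0.05.

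**Figure D5:**
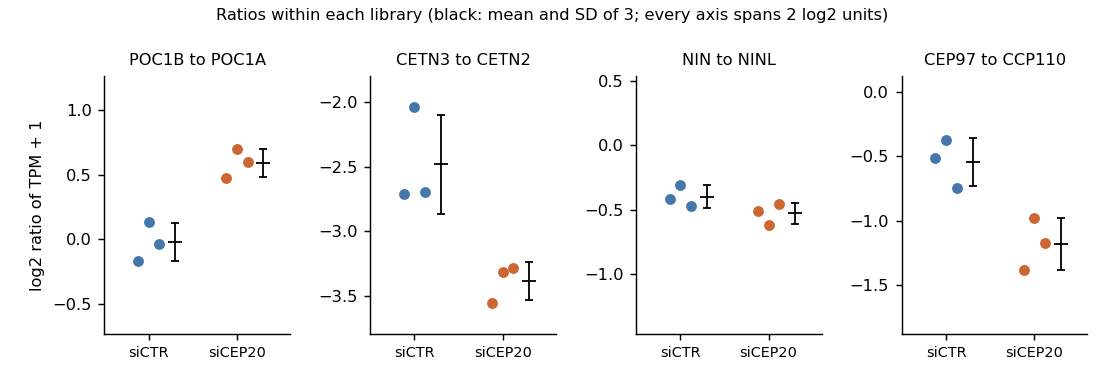
Log2 ratio of TPM + 1 between 2 members within each library, for 3 siCTR (blue) and 3 siCEP20 (orange) libraries; black marks give mean and SD, and every axis spans the same number of log2 units without starting at 0. The groups are separate for POC1B to POC1A, CETN3 to CETN2 and CEP97 to CCP110, and overlap for NIN to NINL.

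The members of these pairs that did not pass were POC1A (log2 fold change -0.07), CETN3 (-0.28) and CEP97 (0.03). CETN3 was at 12.3, 19.1 and 11.6 TPM in siCTR and 9.62, 12.2 and 12.5 TPM in siCEP20. One control library stood above the other two, and CETN3 did not pass (adjusted p = 0.256). POC5 (0.31), CEP76 (0.17) and CEP78 (-0.15) did not pass either. CEP78, singled out after its values were seen, was at 10.2, 10.6 and 12.7 TPM in siCTR and 8.77, 11.95 and 9.22 TPM in siCEP20, overlapping on unscaled TPM. Only after the length and GC correction did CEP78 fall (-0.43, adjusted p = 0.0159).

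Of the 5 distal appendage genes, 4 rose (80.0%, beside 30.2% of all tested genes) and 0 fell. Their median log2 fold change was 0.47. Of the 5, 1 was called (20.0%, beside 11.2% of all tested genes). Under median-of-ratios scaling 2 of the 5 were higher, beside 19.7% of all tested genes. After the length and GC correction 1 of the 5 was, CEP89, beside 20.0% of all tested genes, so that count was at the background. CEP89 (chr19:32875925-32971991) had the largest fold change of all members. It was at 36.2, 29.9 and 40.8 TPM in siCTR and at 57.6, 66.5 and 53.98 TPM in siCEP20, or 35.6 ± 5.51 against 59.4 ± 6.47 (SD, n = 3), with a gap between the groups (0.73 ± 0.122 SE, adjusted p = 0.00218). FBF1 (chr17:75909574-75941140), which sits among the appendages and gates the cilium, was at 9.24, 10.7 and 13.3 TPM in siCTR and 14.8, 17.7 and 16.5 TPM in siCEP20. FBF1 rose (0.53 ± 0.132 SE, adjusted p = 0.013), but 49.6% of its exonic bases are shared on the same strand with an unnamed protein-coding gene that was also expressed, so reads of both could be exchanged in the quantification. CEP83, at the root of appendage assembly, rose (0.47, adjusted p = 0.0413), as did CEP164, which docks the ciliary vesicle (0.24, adjusted p = 0.0404). Neither passed under any of the 3 other scalings, and CEP83 and CEP164 passed with only 1 of the 6 libraries left out in turn, siCTR replicate 3 (adjusted p from 0.0652 to 0.13 without one of the others). SCLT1 did not pass (0.17, adjusted p = 0.329).

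The subdistal appendage genes were also mostly higher, with 5 of 6 risen (83.3%, beside 30.2% of all tested genes) and 0 fallen. Their median log2 fold change was 0.46. Of the 6, 2 were called (33.3%, beside 11.2% of all tested genes). Median-of-ratios scaling left 4 of the 6 higher, beside 19.7% of all tested genes. The length and GC correction left 2, CEP170 and CEP112, beside 20.0%. CEP112 (chr17:65635537-66192133) was at 6.04, 5.27 and 6.23 TPM in siCTR and 9.24, 10.3 and 10.3 TPM in siCEP20. The groups of CEP112 were well apart (0.68 ± 0.103 SE, adjusted p = 0.00135). CEP128 (chr14:80476983-80959517), a structural part of the subdistal appendage, was rarer, at 2.51, 2.00 and 2.71 TPM in siCTR and 4.06, 5.00 and 3.75 TPM in siCEP20. It rose (0.63 ± 0.150 SE, adjusted p = 0.011), and after the length and GC correction its adjusted p was 0.0513. CEP170 (chr1:243124428-243255348), which marks the appendage tip, was at 17.8, 21.2 and 22.6 TPM in siCTR and 29.4, 32.0 and 27.4 TPM in siCEP20. Its groups were separate (0.51 ± 0.103 SE, adjusted p = 0.00506). NINL (0.40, adjusted p = 0.0106) and NIN (0.27, adjusted p = 0.046), which anchor microtubules, rose on unscaled TPM, but NIN did not pass without any one library (adjusted p from 0.0585 to 0.132) and came to -0.0044 after the length and GC correction. NINL shares 1.6% of its exonic bases on the opposite strand with GINS1, a DNA replication gene that fell. ODF2, the base on which these appendages are built, did not pass (0.10, adjusted p = 0.434).

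Of the 5 genes of the pericentriolar matrix, 3 rose (AKAP9, CEP57 and CDK5RAP2), 0 fell and 1 was called. That is 60.0% higher genes, beside 30.2% of all tested genes, with a median log2 fold change of 0.28. The 1 called of 5 is 20.0%, beside 11.2% of all tested genes. Under median-of-ratios scaling 1 of the 5 was higher and after the length and GC correction 0 were, beside 19.7% and 20.0% of all tested genes. PCNT (chr21:46324124-46445769), the pericentrin scaffold, was at 8.34, 10.96 and 8.996 TPM in siCTR and 10.2, 10.5 and 8.84 TPM in siCEP20. The values of PCNT overlapped throughout (0.06 ± 0.12 SE, adjusted p = 0.702). AKAP9 (chr7:91940840-92110673), which anchors protein kinase A and gamma-tubulin complexes at the centrosome and Golgi, was at 4.36, 3.83 and 3.61 TPM in siCTR and 6.14, 6.05 and 9.20 TPM in siCEP20. One knockdown library stood above its fellows, the groups were separate, and AKAP9 rose (0.70 ± 0.163 SE, adjusted p = 0.00953). Its adjusted p was 0.109 after the length and GC correction.

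CDK5RAP2 (chr9:120388875-120580170), which activates gamma-tubulin complexes in the matrix, was at 20.9, 21.0 and 23.7 TPM in siCTR and 26.5, 27.5 and 25.9 TPM in siCEP20. The increase was small and the groups were separate (0.28 ± 0.0777 SE, adjusted p = 0.021). It did not pass under the 3 other scalings, nor without siCTR replicate 1 or 2 or siCEP20 replicate 1 or 2 (adjusted p from 0.0551 to 0.0713). CEP57, which holds pericentrin to the centriole, rose by a like amount (0.29, adjusted p = 0.0233) but likewise did not pass under the other scalings, nor without siCTR replicate 2 or 3 or siCEP20 replicate 1 or 2 (adjusted p from 0.0523 to 0.0815). CEP57 has 20.9% of its exonic bases opposite MTMR2. CEP85 did not pass (-0.06, adjusted p = 0.603).

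The linker genes had the lowest median, 0.02, with 2 of 5 risen (40.0%, beside 30.2% of all tested genes), 0 fallen and 0 called. Relative to the all-gene median this was -0.11. The 2 that rose were not the structural filaments. NEK2 (chr1:211658657-211675630), the kinase that dissolves the linker as mitosis begins, was at 15.5, 16.6 and 19.5 TPM in siCTR and 24.1, 26.2 and 22.7 TPM in siCEP20. NEK2 rose (0.48 ± 0.102 SE, adjusted p = 0.00614) and also did so under each other scaling. CEP68 (chr2:65056354-65087004), a linker protein lost from centrosomes in mitosis, was at 6.56, 6.89 and 6.60 TPM in siCTR and 9.17, 8.87 and 8.77 TPM in siCEP20. It rose on unscaled TPM (0.37 ± 0.0884 SE, adjusted p = 0.0107) but did not pass under the 3 other scalings. CEP68 shares 6.4% of its exonic bases on the opposite strand with RAB1A, which was far more abundant at a mean of 313.0 TPM. CROCC, the rootletin filament (-0.04), CEP250, which docks that filament to the centriole (0.02), and CEP70 (-0.04) did not pass, with adjusted p from 0.782 to 0.875.

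Augmin acts as a complex of 8 proteins. Of its 8 genes 2 rose, 0 fell and 6 did not pass, which is 25.0% higher genes beside 30.2% of all tested genes, with a median log2 fold change of 0.18 and 5 of 8 fold changes above 0. HAUS6 (chr9:19053141-19102904), the subunit that contacts the gamma-tubulin complex, was at 13.2, 13.1 and 14.2 TPM in siCTR and 21.1, 20.8 and 20.3 TPM in siCEP20. The groups of HAUS6 were tight and far apart (0.59 ± 0.0745 SE, adjusted p = 0.000591), and it was called. HAUS4 (chr14:22946228-22957161), the most abundant subunit, was at 57.4, 54.4 and 51.2 TPM in siCTR and 60.2, 64.8 and 64.7 TPM in siCEP20. Its rise was small (0.22 ± 0.0678 SE, adjusted p = 0.0328) and did not pass under the 3 other scalings, nor without siCTR replicate 2 or 3 or siCEP20 replicate 2 or 3 (adjusted p from 0.077 to 0.0991).

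HAUS1 (chr18:46104378-46128333), singled out after its values were seen, was the member whose knockdown libraries all lay below the controls. HAUS1 was at 25.7, 29.9 and 30.5 TPM in siCTR and 23.5, 25.6 and 24.5 TPM in siCEP20. On unscaled TPM this did not pass (-0.21 ± 0.0853 SE, adjusted p = 0.0735), whereas it fell with median-of-ratios scaling (-0.37, adjusted p = 0.00278), quantile normalization (-0.35, adjusted p = 0.00373) and the length and GC correction (-0.23, adjusted p = 0.0242). The remaining 5 subunits ran from -0.10 (HAUS8) to 0.37 (HAUS3), and HAUS2 was at 23.5, 26.9 and 16.6 TPM in siCEP20, its replicate 3 below all controls (17.8 to 18.4 TPM), without which HAUS2 was higher (adjusted p = 0.00856). HAUS7 shares 35.7% of its exonic bases with TREX2 on the same strand, and HAUS3 shares 9.7% with POLN. HAUS3 was higher when siCTR replicate 3 was left out (adjusted p = 0.0322).

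Of the 2 remaining CEP genes, CEP55 (chr10:93496612-93529092), which acts at the midbody in the last step of cell division rather than in the centriole, was at 24.8, 24.8 and 32.3 TPM in siCTR and 40.9, 44.9 and 42.4 TPM in siCEP20. CEP55 rose and was called (0.64 ± 0.108 SE, adjusted p = 0.00222). CEP95 (chr17:64506865-64542461) was at 17.7, 20.7 and 25.0 TPM in siCTR and 22.1, 24.4 and 26.4 TPM in siCEP20, overlapping, and did not pass (0.20 ± 0.126 SE, adjusted p = 0.227).

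A second list of 41 centriole and centrosome genes outside the members, of which 38 were tested, was counted beside them. In that list 19 rose (50%, beside 30.2% of all tested genes) and 2 fell (5.26%, beside 13.2%), 6 and 1 of them called, with a median log2 fold change of 0.34. With median-of-ratios scaling 11 of the 38 were higher and 5 lower, beside 19.7% and 21.8% of all tested genes, and after the length and GC correction 9 were higher and 6 lower, beside 20.0% and 21.2%. PCM1, the scaffold of centriolar satellites, rose (14.4, 14.4 and 16.2 TPM against 25.9, 26.9 and 23.1 TPM, log2 fold change 0.72). SSNA1, a small microtubule-binding protein of centrioles, fell (165.7, 165.4 and 154.5 TPM against 121.0, 127.3 and 124.3 TPM, -0.38), and PPP1R35, which acts in centriole elongation, fell further (58.9, 61.0 and 60.1 TPM against 33.6, 41.8 and 41.3 TPM, -0.62).

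Several members are transcribed with the cell cycle, so cell cycle genes were counted beside them. Of 20 genes of G2 and M phase, 12 were higher (60.0%, beside 30.2% of all tested genes), 1 was lower (5.0%, beside 13.2%), 7 did not pass, and the median log2 fold change was 0.31. With median-of-ratios scaling 8 were higher and 2 lower, and after the length and GC correction 8 and 1, beside the shares of all genes given above for these scalings. MKI67, a marker of cycling cells, was at 20.6, 24.5 and 25.7 TPM in siCTR and 46.0, 49.2 and 42.3 TPM in siCEP20 (0.93, adjusted p = 0.000261). CENPF and CENPE, of the kinetochore, rose by 0.78 and 0.87. The lower gene, named after its values were seen, was CCNB1, the cyclin that drives entry into mitosis (-0.25, adjusted p = 0.0122). Of 19 tested genes of G1 and S phase, 9 were higher (47.4%) and 1 was lower (5.26%), with a median of 0.22, and 5 were higher and 5 lower both with median-of-ratios scaling and after the length and GC correction. The lower gene was GINS1, at 16.4, 19.1 and 17.7 TPM in siCTR and 8.24, 7.06 and 8.67 TPM in siCEP20 (-1.06, adjusted p = 0.000185), while CDT1 (0.69) and RRM1 (0.32) rose. The part of the cell cycle in the members' changes was not tested.

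Promoters are shown, as a description, for the members with the 2 largest fold changes. RefSeq (GRCh38.p14) gave a promoter for 49 of the 54 members; CENPJ, SPICE1, CETN3, CEP78 and CEP250 were not matched. Motifs were searched on both strands from 250 bases before to 50 bases after the start, and the 250 bases before it are printed 5′ to 3′ along the gene, with matches in capitals. CEP89 (chr19:32971959-32972208, minus strand) held 1 match to the cell cycle homology region (CHR, TTTGAA), 3 to the CCAAT box (CCAAT), 2 to the GC box (GGGCGG) and 1 to an RFX motif (GTTGCCA). AKAP9 (chr7:91940612-91940861, plus strand) held 2 matches to an E2F motif (GGCGGGA) and 1 GC box.
CEP89: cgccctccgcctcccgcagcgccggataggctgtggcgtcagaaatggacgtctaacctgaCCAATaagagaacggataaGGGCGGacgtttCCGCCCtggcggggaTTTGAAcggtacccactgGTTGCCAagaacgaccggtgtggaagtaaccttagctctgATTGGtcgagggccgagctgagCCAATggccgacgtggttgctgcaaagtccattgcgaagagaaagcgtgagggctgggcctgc
AKAP9: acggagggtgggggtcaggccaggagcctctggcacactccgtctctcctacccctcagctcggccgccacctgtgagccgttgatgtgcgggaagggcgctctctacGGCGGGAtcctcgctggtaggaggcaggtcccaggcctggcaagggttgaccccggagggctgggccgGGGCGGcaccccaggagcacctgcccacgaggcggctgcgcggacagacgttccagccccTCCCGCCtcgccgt

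Over the 49 promoters, the CHR letters were found in 12 (24.5%), beside 9.17% of the promoters of tested genes and 15.4% of all promoters in the table. These were 7 of the 29 members that rose (PLK4, CEP135, CEP192, CEP89, CEP57, CDK5RAP2 and CEP55) and 5 of the 19 tested members that did not pass (CEP152, CEP76, POC5, SCLT1 and HAUS8). The E2F letters were in 19 (38.8%, beside 25.6% and 15.5%), in 14 of the 29 and 5 of the 19. The CCAAT box was in 21 (42.9%, beside 36.6% and 35.7%), in 9 of the 29 and 11 of the 19. GC boxes were in 37 (75.5%, beside 70.9% and 44.6%). An ETS motif (CCGGAAGT) was in 5 (10.2%, beside 9.03% and 4.44%), and the RFX motif in 4 (8.16%, beside 3.68% and 4.13%). The E2F and GC box letters can overlap, and the matches are a description of these windows.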

How the data were processed

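RNA was sequenced from 3 siCTR and 3 siCEP20 libraries of A549 cells. The authors trimmed reads with fastp 0.20.1, aligned them to hg38 with HISAT2 2.1.0, quantified genes with StringTie 2.0 and deposited TPM, with no counts; the annotation release and the strand setting are not given in the sources used here, although the methods describe a library that keeps strand. Because the deposited values were TPM, the authors' count test (DESeq2) could not be run. All 6 value columns were assigned to samples by name (0 left out). After leaving out genes averaging under 1 TPM, the rest were tested with limma 3.58.1 (R 4.3.3) on log2(TPM + 1), eBayes with a trend, with Benjamini-Hochberg adjustment over all 14778. Fold changes are on this scale and understate those of low genes. The thresholds, adjusted p under 0.05 and fold change over 1.5 or under 0.67, are those of the study. Symbols, positions and canonical transcripts came from GENCODE 44, motifs from RefSeq promoters. The fit was tested on simulated data first.

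The members, role groups and lists were chosen with earlier results of these data known. Values in every library are given for called members, the 2 smallest adjusted p in each role group, and PLK4, STIL, SASS6, CEP192, PCNT and CDK5RAP2; from each other list at most 3 genes of smallest adjusted p are named, with markers apart. One leukocyte marker is not reported here. Alternatives were another pseudocount, other filters, 3 scalings, no trend, a replicate block, protein-coding genes only, and leaving out each library.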

Additional observations from a re-analysis of the deposited data

How the results depend on the processing

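The count of higher members, 31, came to 19 after quantile normalization, 14 once length and GC were corrected for, and 13 when the replicate block was added to that, and leaving out each library in turn gave 20 to 30. The count of lower members, 0, came to 1 with median-of-ratios scaling, 1 with quantile normalization, and 2 with the length and GC correction, with or without the replicate block, and to 0 to 1 without a library. The 12 called higher became 0 with median-of-ratios scaling, 1 with quantile normalization and 0 with the length and GC correction, with or without the block, and 6 to 15 without a library. The members' median log2 fold change, 0.37, was 0.41 with a pseudocount of 0.1, 0.31 with a minimum mean of 5 TPM, 0.23 with median-of-ratios scaling, 0.20 with quantile normalization and 0.15 with the length and GC correction, with or without the block, and 0.32 to 0.43 without a library. The scalings move the all-gene median from 0.13 to about 0, the minimum of 5 TPM leaves out members, and a smaller pseudocount shrinks the fold changes of low genes less. NIN reversed to -0.0044 after the length and GC correction, with or without the block. Without siCEP20 replicate 2, 20 members were higher and 7 called, and without siCTR replicate 1, 6 were called. In the 16 alternatives no member was called lower, and 13 of the 31 higher members were higher in each.

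Replicate numbers are shared by the groups. The deviations of same-numbered libraries from their group means correlated at 0.157, -0.0614 and -0.0623, beside -0.121 to 0.17 for pairs with different numbers. With 3 libraries a group, these values cannot tell whether same-numbered libraries were handled together. With the replicate block, 26 members were higher, all of them among the 31. The 4 ratios kept their direction under the pseudocount, the block and each left-out library. Without depth, the counting error of low members such as SASS6, CEP128 and CEP152 is unknown.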
